A study of Mus musculus with 3 samples.

Results

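The clustered protocadherin locus is described here at the level of DNA, as all SNPs of an interval on mouse chromosome 18 that spans its alpha, beta and gamma clusters, the first and the last SNP being chr18:36930350-37845308 in GRCm38. Of 452304 SNPs in 30212 genes, 1417 SNPs in 29 genes fell into this interval, and none of their positions was repeated. The alpha cluster held 125 of these SNPs, the beta cluster 1014, the gamma cluster 198, and 5 genes that encode no protocadherin the other 80. The same SNPs were listed for all 3 libraries. The question behind the exome data was whether a chromosome copy had been lost (loss of heterozygosity, LOH) in cells grown from few stem cells, because such a loss would look like expression from a single allele. Counts from both parental chromosomes were found for all 29 genes in all 3 libraries. The maternal share of the counts, called allelic imbalance (AI), ran from 0.356 to 0.744 over these genes, and 0 of them were in the LOH range of the study, an AI under 0.25 or over 0.75.

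DNA was taken from B or T lymphocytes of 3 female recipient mice, 1 library per animal. E6.2 is polyclonal and was reconstituted with 50 haematopoietic stem cells (HSCs) of donor animal 6, and its library holds 58000 B cells sorted as B220+IgM+, which the sample labels place in the spleen and the methods of the paper in the bone marrow. E6.43 is monoclonal, with 1 HSC of the same donor, and E15.10 is monoclonal, with 1 HSC of donor animal 15. Their libraries were made from CD4+CD8- thymic T cells, 250000 and 177000 of them. All cells are F1 of C57BL/6 (B6, the mother, C57BL/6J in the methods) and CAST/EiJ (CAST, the father), so reads over a SNP can be given to 1 of the parental chromosomes. The recipients were sub-lethally irradiated F1 animals of the same strains and keep blood cells of their own, which carry both alleles too. The methods report a large deletion in all samples of E6. Since B cells were taken only from the polyclonal animal, clonality and cell type cannot be told apart, and no library has a replicate. Each test below therefore compares 2 libraries, not 2 conditions, and the error of a single value is counting error alone.

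Clustered protocadherins are adhesion molecules of the cadherin superfamily that give neurons a surface identity. Each alpha or gamma isoform begins with its own large variable exon, which is spliced to constant exons shared by the whole cluster, while a beta gene consists of a single coding exon. In neurons most variable exons are chosen at random and on each chromosome independently, with the help of CTCF and cohesin, whereas the C-type exons at the end of the alpha and gamma clusters are used more uniformly. This choice makes the locus a textbook case of random monoallelic expression. It acts on promoters and leaves the DNA of both chromosomes in place.

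Where 3 values follow each other without a name, they stand for E6.2, then E6.43, then E15.10. The total depth was 19471576, 13036005 and 10863972 allelic counts, of which the locus took 213177, 135932 and 49174. At least 20 counts were reached by 1227, 1185 and 1017 of its SNPs. A further 122 SNPs had 0 counts in all libraries, 106 of them in untranslated exons and none in coding sequence. The files list the whole alpha cluster under 1 gene identifier (ENSMUSG00000007440) and the whole gamma cluster under another (ENSMUSG00000023036). The SNPs of these clusters were therefore assigned to variable exons by the GENCODE annotation, which gave 8 of 14 alpha and 9 of 22 gamma variable exons with at least 1 SNP. The 3 SNPs of the alpha constant exons had no count in any library, and the 1 SNP of the gamma constant exons had 2 counts, both in E15.10, so the constant exons were not measured. The last SNP before the interval lay in *Gm6756* at position 36922192, with 7 maternal counts of 17, 3 of 6 and 4 of 5. The first SNP after it lay in *Diaph1* at position 37856128, with 37 of 83, 44 of 83 and 33 of 67. An AI of 0.5 stands for equal copies, and 0 or 1 for a single parental copy. Over autosomal genes AI had a median of 0.538, 0.538 and 0.537, and this value was used as the balanced state.

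All 29 genes reached the minimum of 10 counts in all 3 libraries. The number in the LOH range was 0 in each library, where 5.32%, 5.56% and 5.24% of autosomal genes were in this range. Among autosomal protein-coding genes, 544 of 18040, 578 of 17955 and 495 of 17872 were. The 29 genes are also more deeply counted, with a median of 5254, 3553 and 1147 counts, beside 527, 358 and 268 over autosomal genes. Genes with an AI from 0.4 to 0.6 numbered 24, 24 and 20 of the 29, beside 78.8%, 75.1% and 72.8% of autosomal genes. An AI over 0.6 was found for 3, 5 and 9 genes, beside 14.9%, 17.9% and 20.2% of autosomal genes. The AI was above the median of the library for 19, 21 and 22 of the 29 genes, where 50%, 49.9% and 50% of autosomal genes are by construction. Most genes of the locus thus lay on the maternal side of the balanced state by a small step when all SNPs were counted. The median over the 29 genes was then 0.552, 0.551 and 0.566. On SNPs at least 300 bp apart, the AI of the whole interval was 0.537, 0.539 and 0.551. It was close to the library median in both E6 libraries and above it in E15.10. In the two-sided beta-binomial test against the library median, 0 of 29 genes passed an adjusted p of 0.05 in any library, beside 2.73%, 2.46% and 2.19% of autosomal genes. At an unadjusted p under 0.05 the same test gave 0, 0 and 1 genes, beside 5.25%, 5.16% and 6.29% of autosomal genes. The 1 gene was the non-coding *3222401L13Rik* in E15.10, with an adjusted p of 0.614 by the beta-binomial test. The overdispersion was estimated over autosomal genes with at least 50 counts, those in the LOH range included. This made the test wide at any depth. *Pcdhb9* in E6.2, at 0.650 from 15529 counts, had an unadjusted p of 0.339 by the beta-binomial test. That no gene passed thus adds little to the absence of genes in the LOH range.

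**Figure D1:**
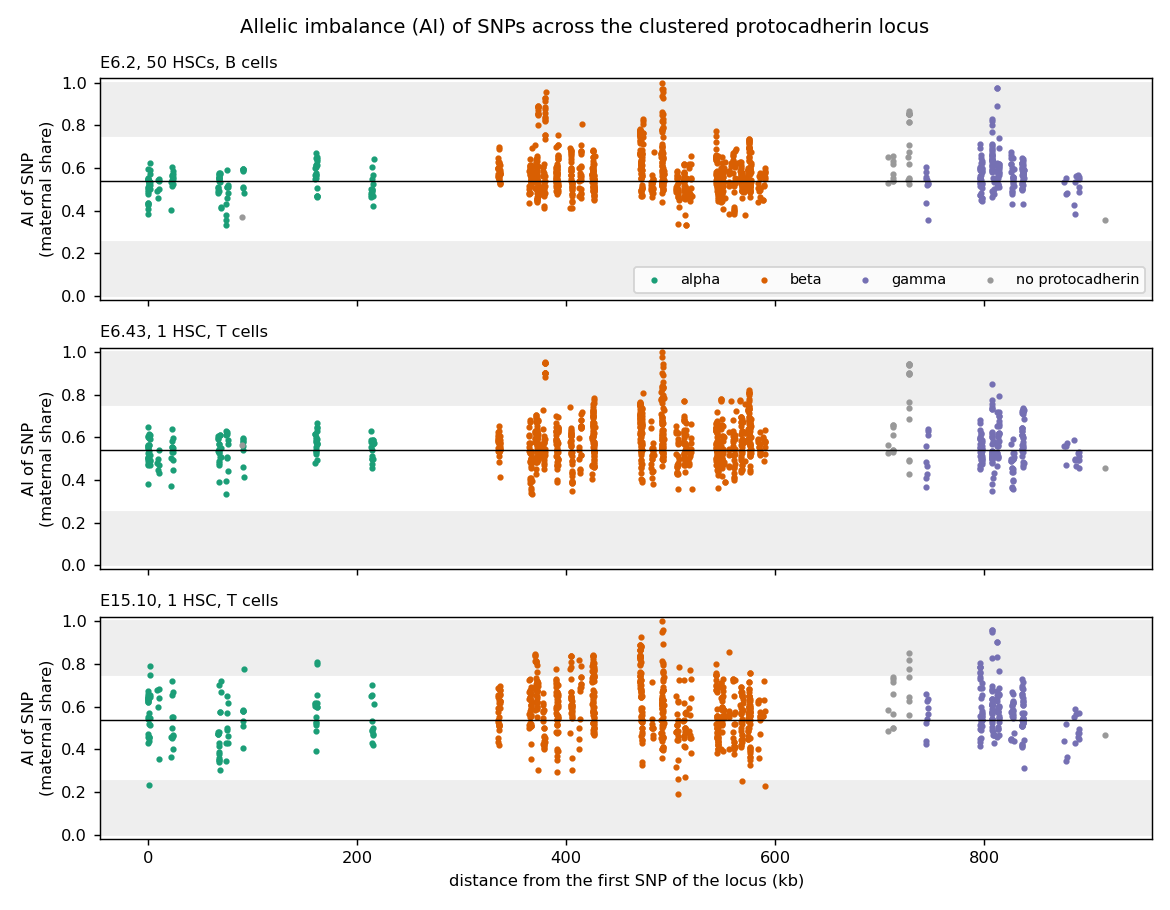
AI of each SNP with at least 20 counts (vertical axis, maternal share) against its distance from the first SNP of the locus in kb (horizontal axis), with 1 panel per library and colours for the clusters. The line is the median AI of autosomal genes and the grey bands are the LOH range; SNPs scatter around the line along the whole locus, and those in the grey bands are nearly all on the maternal side, in short stacks at single genes.

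With all SNPs counted, the alpha cluster lay nearest to the balanced state. Its AI was 0.53 (95% Wilson interval 0.524 to 0.536, 24766 counts), 0.54 (0.533 to 0.548, 16044 counts) and 0.536 (0.522 to 0.549, 5143 counts). The beta cluster lay higher, at 0.568 (0.566 to 0.571, 157976 counts), 0.579 (0.576 to 0.582, 98537 counts) and 0.601 (0.595 to 0.606, 29803 counts) in the same order of libraries. The gamma cluster had 0.576 (0.570 to 0.582, 27661 counts), 0.557 (0.550 to 0.564, 19562 counts) and 0.564 (0.556 to 0.572, 13445 counts). A read pair counts at every SNP it covers, so these intervals are too narrow. With only SNPs at least 300 bp apart, beta fell to 0.536, 0.549 and 0.575, gamma to 0.545, 0.517 and 0.521, and alpha gave 0.532, 0.526 and 0.537. Beta was the highest cluster under both countings in E6.43 and E15.10, gamma was the highest in E6.2, and the order of alpha and gamma in E6.43 and E15.10 turned with the counting.

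The 22 beta genes are intact single-exon genes in a row, and each was measured in each library, with 870 to 18238, 518 to 12152 and 193 to 3142 counts. Their AI had a median of 0.551, 0.556 and 0.574 and an SD over the genes of 0.035, 0.040 and 0.057. The median gene had 6174, 3594 and 1328.5 counts, so counting error also widens the SD most in E15.10. The highest value in E6.2 and E15.10 was that of *Pcdhb9* (chr18:37400855-37403909), with 0.650 (0.643 to 0.658), 0.631 (0.621 to 0.641) and 0.686 (0.668 to 0.703). *Pcdhb11* (chr18:37421418-37425836), the beta gene with the most counts, had 0.621 (0.614 to 0.628), 0.638 (0.629 to 0.646) and 0.611 (0.592 to 0.629), and its intervals overlapped between E6.2 and E15.10. The lowest was *Pcdhb12* (chr18:37435621-37438654) in E6.2 and E15.10, with 0.501 and 0.493, beside 0.504 in E6.43. In E6.43 the lowest was *Pcdhb2*, at 0.495. With all SNPs counted, *Pcdhb9* and *Pcdhb11* were over 0.6 in all 3 libraries. On SNPs at least 300 bp apart *Pcdhb9* had 0.609, 0.605 and 0.645, and *Pcdhb11* had 0.588, 0.616 and 0.581, so that *Pcdhb11* was over 0.6 only in E6.43. The AI of *Pcdhb12* was below the library median in all 3 libraries. Across the 22 genes the AI of E6.2 ran with that of E6.43 (Pearson's r = 0.71, Spearman's rho = 0.58) and with that of E15.10 (r = 0.66, rho = 0.68), and that of E6.43 with E15.10 less tightly (r = 0.50, rho = 0.43). These are descriptions across genes, which share the probes, the reference genome and the counting of each library.

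**Figure D2:**
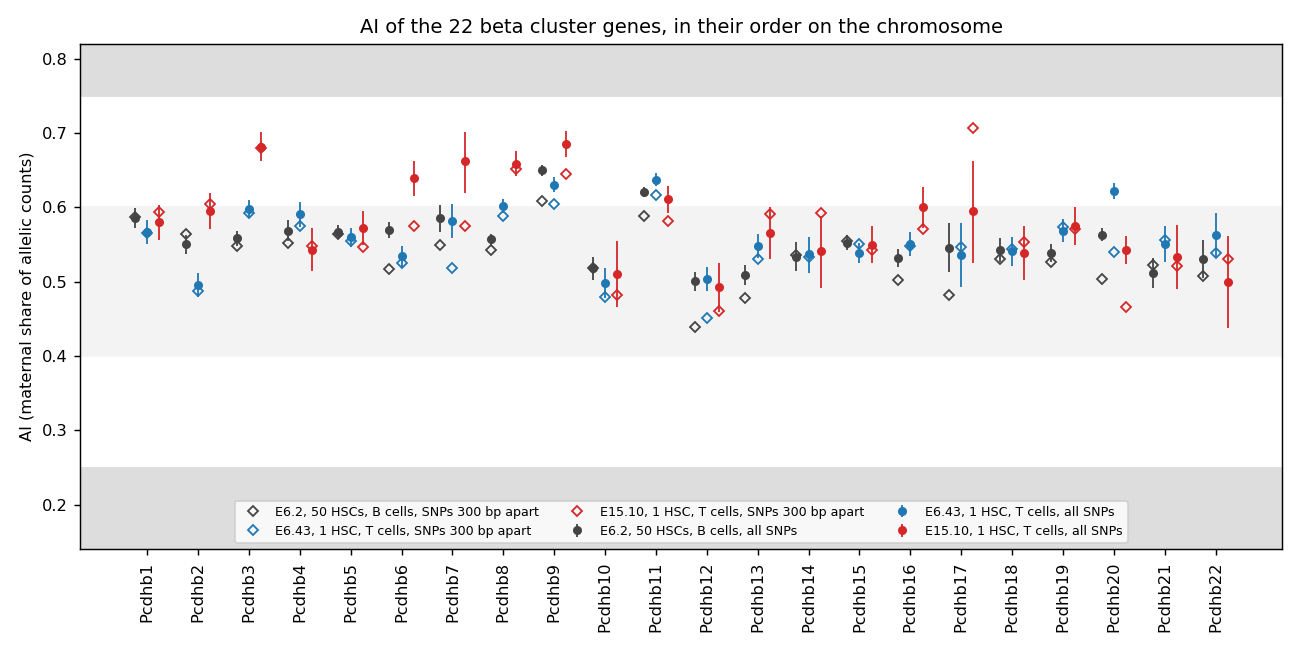
AI (vertical axis) of the 22 beta genes in chromosomal order for the 3 libraries, with filled points for all SNPs (bars are 95% Wilson intervals, counting error only) and open diamonds for SNPs at least 300 bp apart. The light band is 0.4 to 0.6 and the darker bands the LOH range. No filled point reaches the LOH range, and *Pcdhb3* and *Pcdhb8* have their highest value in E15.10. The filled points of *Pcdhb9* and *Pcdhb11* stand above the light band in all 3 libraries, the open diamond of *Pcdhb11* only in E6.43.

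Among the 8 measured alpha variable exons the AI was between 0.4 and 0.6 for 8, 8 and 7. The one with the most counts, *Pcdha1* (chr18:36930184-36932672), the first exon of the locus, had 0.509 (0.497 to 0.521), 0.547 (0.532 to 0.562) and 0.571 (0.545 to 0.597). *Pcdha2* had 0.506 (1078 counts), 0.483 (695 counts) and 0.607 (252 counts), the value over 0.6 being that with the fewest counts. *Pcdha10* had the lowest value of E6.2, at 0.475, and was at 0.509 and 0.518 in E6.43 and E15.10. *Pcdha9* gave the lowest value of E15.10, 0.448 (0.417 to 0.479), beside 0.54 in E6.2 and 0.539 in E6.43. These exons moved apart most in E15.10, where the SD over the 8 exons was 0.052, beside 0.033 and 0.029. No test was made for single variable exons, because the files give 1 gene for the cluster. For the cluster as a whole, E15.10 minus E6.2 was 0.0050 (95% Newcombe interval -0.022 to 0.032) on SNPs at least 300 bp apart, with an adjusted p of 0.942 by Fisher's exact test.

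In the gamma cluster 9 variable exons were measured, and the AI was between 0.4 and 0.6 for 8, 8 and 9 of them. *Pcdhga9* (chr18:37736936-37740405), the exon with the most counts, had 0.622 (0.610 to 0.634), 0.541 (0.527 to 0.555) and 0.593 (0.575 to 0.612). On SNPs at least 300 bp apart these values were 0.539, 0.468 and 0.493, so that its place over 0.6 in E6.2 was not kept. *Pcdhga12* was the highest of E6.43, at 0.629, beside 0.574 in E6.2 and 0.549 in E15.10. *Pcdhga11*, its close neighbour, was the lowest of E6.43, at 0.463, beside 0.556 and 0.566. For the whole gamma cluster, E6.43 minus E6.2 was -0.028 (-0.047 to -0.009) on SNPs at least 300 bp apart, and the adjusted p by Fisher's exact test was 0.139. On the same SNPs E15.10 minus E6.2 was -0.024 (-0.045 to -0.003), with an adjusted p of 0.204 by Fisher's exact test.

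The C-type exons, which neurons use more uniformly, had an AI from 0.422 to 0.585. *Pcdhac1* had 0.576, 0.577 and 0.585 and was the highest alpha exon of both E6 libraries. *Pcdhac2* had 0.518, 0.532 and 0.534. In the gamma cluster *Pcdhgc3* had 0.513, 0.534 and 0.422, *Pcdhgc4* had 0.489, 0.519 and 0.548, and *Pcdhgc5* had 0.539, 0.5 and 0.484. The value of *Pcdhgc3* in E15.10 (0.367 to 0.479) was the lowest of all measured variable exons in the 3 libraries and rested on 296 counts at 4 SNPs. Over all C-type exons the AI was 0.547 (0.536 to 0.558), 0.548 (0.535 to 0.561) and 0.520 (0.502 to 0.538). The exons do not weigh alike in these sums. The share of counts in E15.10 over that in E6.2 was 0.267 for *Pcdhac1* and 1.73 for *Pcdhgc4*. The lower pooled value of E15.10 thus also holds a change in the mix of exons. *Pcdhac1*, *Pcdhac2* and *Pcdhgc4* were higher in E15.10 than in E6.2, and *Pcdhgc3* and *Pcdhgc5* were lower.

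**Figure D3:**
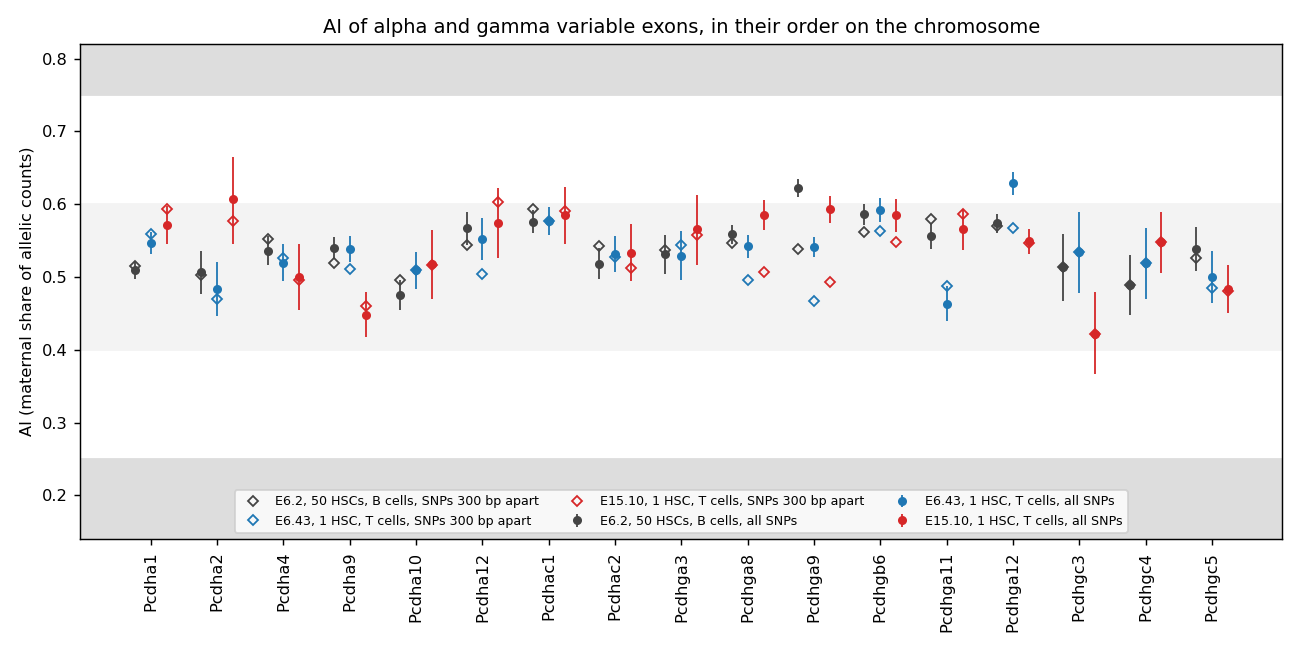
AI (vertical axis) of the 8 alpha and 9 gamma variable exons that hold a SNP, in chromosomal order, for the 3 libraries. Filled points are all SNPs with 95% Wilson intervals (counting error only), open diamonds are SNPs at least 300 bp apart, the light band is 0.4 to 0.6 and the darker bands the LOH range; all exons lie between 0.422 and 0.629.

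The 5 other genes of the interval were thinly covered. *Taf7*, a subunit of the general transcription factor TFIID that lies between the beta and gamma clusters, had 0.576 (755 counts), 0.587 (586 counts) and 0.617 (282 counts). *Slc25a2*, a mitochondrial ornithine carrier, had 0.591, 0.544 and 0.541. *Diaph1*, an actin-nucleating formin whose end lies in the interval, had 0.356 (0.246 to 0.483), 0.5 (0.345 to 0.655) and 0.5 (0.366 to 0.634), from 59, 36 and 50 counts. The predicted gene *Gm10545* had 0.386, 0.5 and 0.4 from 44, 28 and 10 counts, so that its value for E6.2 has an interval from 0.257 to 0.534. *3222401L13Rik* (chr18:37655451-37661742), a long non-coding RNA gene, had the highest AI of the locus, with 0.691 (0.668 to 0.713), 0.744 (0.716 to 0.770) and 0.736 (0.688 to 0.778). On SNPs at least 300 bp apart it had 0.571, 0.550 and 0.693, and as the median of its SNPs 0.817, 0.898 and 0.741. Its value thus depended on the counting in both E6 libraries, while in E15.10 both alternatives stayed within its interval. In E6.43, 10 of its 15 SNPs with at least 20 counts were in the LOH range, all within 201 bp (chr18:37658350-37658550).

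The difference between libraries was tested for each gene on SNPs at least 300 bp apart, by Fisher's exact test with Benjamini-Hochberg adjustment over all autosomal genes. Between E6.43 and E6.2, which share the donor, 0 of 29 genes of the locus passed, beside 0.661% of autosomal genes (0.333% higher and 0.328% lower in E6.43), and 7 genes had an unadjusted p under 0.05, beside 13% of autosomal genes. In the comparison of E15.10 with E6.2, 3 of 28 genes passed, beside 4.76% of autosomal genes. All 3 were higher in E15.10 and 0 lower, beside 3.05% higher and 1.71% lower. They were the beta genes *Pcdhb3*, *Pcdhb8* and *Pcdhb17*. Between E15.10 and E6.43, 1 of 28 genes passed, beside 4.78% of autosomal genes. It was *Pcdhb2*, higher in E15.10, beside 2.94% higher and 1.84% lower. *Gm10545* had only 8 such counts in E15.10 and was not tested there. The shares for all autosomes include genes of the deletion that all samples of E6 carry. On chromosome 18 outside the locus, 22 of 474 genes (4.64%) passed between E15.10 and E6.2, 11 of them higher. Both comparisons of E15.10 share the E15.10 library. In them 6 (E6.2) and 5 (E6.43) of the 28 genes had an unadjusted p under 0.05 by Fisher's exact test, beside 16.7% and 16.6% of autosomal genes. The exact test allows for counting error only, so its p-values can be too small. The median difference over the 28 genes was 0.023 between E15.10 and E6.2 and 0.012 between E15.10 and E6.43, beside 0 over all autosomal genes in both.

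*Pcdhb3* (chr18:37300799-37304585) had 795 maternal counts of 1452 (E6.2), 567 of 957 (E6.43) and 248 of 365 (E15.10) at its 10 spaced SNPs, an AI of 0.548, 0.592 and 0.679. E15.10 was above both E6 libraries. Its difference from E6.2 was 0.132 (95% Newcombe interval 0.076 to 0.184), with an adjusted p of 0.000327 by Fisher's exact test. The AI was higher in E15.10 than in E6.2 at 7 of the 10 SNPs, and the difference was at least 0.1 whichever SNP was left out. E15.10 minus E6.43 was 0.087 (0.029 to 0.143), higher at 9 of the 10, with an adjusted p of 0.0659 by the same exact test. The call against E6.2 held under every alternative that was run.

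*Pcdhb8* (chr18:37355121-37358604) had 854 maternal counts of 1574 (E6.2), 555 of 943 (E6.43) and 168 of 258 (E15.10) at 6 spaced SNPs, an AI of 0.543, 0.589 and 0.651. It stood in the same order as *Pcdhb3*. E15.10 minus E6.2 was 0.109 (0.044 to 0.169), with an adjusted p of 0.0302 by Fisher's exact test, and the AI was higher in E15.10 at 6 of 6 SNPs. With SNPs at least 600 bp apart the difference was 0.069 and the adjusted p of the exact test 0.395. E15.10 minus E6.43 was 0.063 (-0.005 to 0.127) with an adjusted p of 0.362 by Fisher's exact test.

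*Pcdhb17* (chr18:37484795-37489454) had 149 maternal counts of 309 (E6.2), 100 of 183 (E6.43) and 58 of 82 (E15.10) at 4 spaced SNPs, an AI of 0.482, 0.546 and 0.707. E15.10 minus E6.2 was 0.225 (0.105 to 0.328), with an adjusted p of 0.0107 by Fisher's exact test. A single SNP, at position 37485767, sets this value, with 49 maternal counts of 128 (E6.2), 42 of 67 (E6.43) and 30 of 35 (E15.10). Without it the difference was 0.043. With the counts of all its SNPs it was 0.05, with an adjusted p of 0.454 by the exact test.

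*Pcdhb2* (chr18:37294812-37297624) had 647 maternal counts of 1146 (E6.2), 310 of 635 (E6.43) and 156 of 258 (E15.10) at 7 spaced SNPs, an AI of 0.565, 0.488 and 0.605. Here E6.43 was the library that lay low. E15.10 minus E6.43 was 0.116 (0.044 to 0.186), with an adjusted p of 0.0431 by Fisher's exact test, and E15.10 was higher at 6 of 7 SNPs. With SNPs at least 600 bp apart the difference was 0.125 and the adjusted p of the exact test 0.0898, and with SNPs spaced from left to right 0.092 and 0.16, where the gene called in place of *Pcdhb2* was *Pcdhb8*. For the beta cluster as a whole, E15.10 minus E6.2 was 0.039 (0.024 to 0.054) and E6.43 minus E6.2 was 0.013 (0.004 to 0.023) on spaced SNPs.

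Single SNPs showed where within the genes these differences lay. Between E6.43 and E6.2, 3 of 1185 SNPs of the locus passed, beside 0.325% of autosomal SNPs. All 3 were in *Pcdhb8*, within 28 bp, so they largely share reads, and at the middle one, position 37357448, E6.2 had 54 maternal counts of 110, E6.43 58 of 74 and E15.10 12 of 21. For E15.10 against E6.2, 22 of 1017 SNPs passed, beside 2.53%, and 19 of them were higher in E15.10. Of these, 13 were in *Pcdhb3*, all in its coding exon. Between E15.10 and E6.43, 14 of 1013 passed, beside 2.53%, with 12 higher in E15.10. In the alpha cluster 3 SNPs passed between E15.10 and E6.2, 1 higher and 2 lower in E15.10. A SNP of *Pcdha1* at position 36931971 had 104 maternal counts of 196, 84 of 139 and 10 of 43, the opposite direction to the beta SNPs. The SNP of *Pcdha12* at position 37022492 had 70 of 145, 42 of 102 and 31 of 40, the same direction as the beta SNPs. In the gamma cluster a SNP of *Pcdhga9* at position 37737680 had 87 of 105, 32 of 53 and 48 of 50, with E6.43 the lowest. The share of SNPs called was thus no higher at the locus than over the autosomes in either comparison of E15.10.

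Within *Pcdhb3* the libraries differed in opposite ways in the coding exon and after it. In the coding exon (43 SNPs) the AI was 0.545, 0.597 and 0.708, from 8497, 5578 and 1908 counts. In the untranslated part (25 SNPs) it was 0.672, 0.606 and 0.509, from 992, 629 and 289 counts. In E6.2, 11 SNPs of the untranslated part within 532 bp were in the LOH range and together had 292 maternal counts of 338. None of the SNPs of the gene was in the LOH range in E6.43, and the 10 in E15.10 were all in the coding exon. These opposite directions were not tested. *Pcdhb4*, the next beta gene, had a step up in all 3 libraries, from 0.529, 0.545 and 0.507 in its coding exon to 0.804, 0.868 and 0.851 in its untranslated part. There, 13 SNPs of E6.2 and 11 of E6.43 within 452 and 351 bp were in the LOH range. In *Pcdhb9* and *Pcdhb11*, as in *Pcdhb3*, the untranslated part was above the coding exon in both E6 libraries and below it in E15.10. It had 0.763, 0.809 and 0.286 in *Pcdhb9*, and 0.675, 0.756 and 0.490 in *Pcdhb11*. The E15.10 values rest on 63 and 51 counts.

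SNPs in the LOH range numbered 87 of 1227 (7.09%, Wilson interval 5.78 to 8.66), 80 of 1185 (6.75%, 5.46 to 8.32) and 105 of 1017 (10.3%, 8.60 to 12.3), beside 6.36%, 6.84% and 5.77% of autosomal SNPs. Neighbouring SNPs share reads, so these intervals are too narrow. The share was thus close to that of the autosomes in both E6 libraries and above it in E15.10, where the median SNP of the locus had 40 counts, beside 174 in E6.2 and 114 in E6.43. Every such SNP of E6.2 and of E6.43 was on the maternal side, and in E15.10 102 of 105 were. SNPs over 0.75 made up 4.5%, 4.93% and 4.69% of autosomal SNPs, and of autosomal SNPs in the LOH range 70.8%, 72.1% and 81.3% were maternal. No SNP of the alpha cluster was in this range in E6.2 or E6.43, and 5 were in E15.10.

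Of the 1013 SNPs with at least 20 counts in all 3 libraries, 881 were in the LOH range in none and 17 in all 3. All 17 were maternal, 8 in *Pcdhb9*, 8 in *Pcdhb11* and 1 in *3222401L13Rik*. A further 73 were in this range in E15.10 alone, 20 in E6.43 alone and 5 in E6.2 alone. Sharing between libraries was not counted over all autosomal SNPs, so none of these numbers can be set against an autosomal share. E15.10 also had the fewest counts per SNP. In *Pcdhb9* the 8 SNPs lay within 53 bp (chr18:37401332-37401384) and had an AI of 0.767, 0.757 and 0.851 together, while the other SNPs of the gene with at least 20 counts in all libraries had 0.632, 0.608 and 0.676. In *Pcdhb11* the 8 SNPs lay within 721 bp (chr18:37422166-37422886) and had 0.907, 0.890 and 0.855, while its other SNPs so covered had 0.573, 0.595 and 0.574. At position 37422314 of *Pcdhb11* no paternal count was found in 167, 109 and 20 counts, which allows a paternal share of up to 1.80%, 2.75% and 15% for counting error. The AI of *Pcdhb11* was down to 0.50, 0.636 and 0.459 at position 37422616, back up at 0.968, 0.946 and 0.958 at position 37422770 and was 0.529, 0.522 and 0.577 at position 37423090. The rise, fall and second rise within the gene were seen in all 3 libraries.

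**Figure D4:**
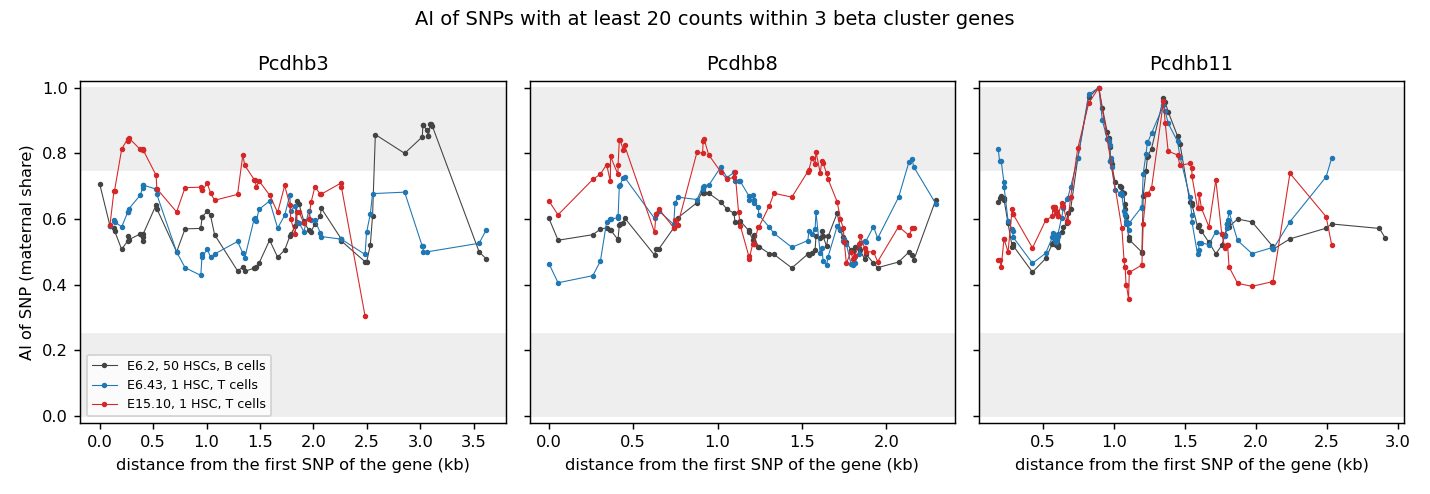
AI (vertical axis) of SNPs with at least 20 counts along *Pcdhb3*, *Pcdhb8* and *Pcdhb11*, by distance from the first SNP of the gene in kb (horizontal axis), for the 3 libraries, with the LOH range in grey. In *Pcdhb11* the 3 lines rise and fall together and reach 1 at the same SNP, whereas in *Pcdhb3* and *Pcdhb8* the line of E15.10 lies above that of E6.2 over much of the coding exon.

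Of the 17 shared SNPs, the 16 in *Pcdhb9* and *Pcdhb11* lay in sequence that resembles other parts of the locus, and the 1 in *3222401L13Rik* did not, with 50.5% identity to its closest window. For the 17 SNPs the closest other window in the interval (50 bp on each side of the SNP) was identical at a median of 99.0% of bases, beside 88.1% for the 881 SNPs in the LOH range in none. The windows of the shared *Pcdhb9* SNPs overlap, so this median rests on few stretches. Over all their SNPs *Pcdhb9* and *Pcdhb11* had a median of 91.1% and 93.1%. The 881 SNPs include those of the alpha and gamma clusters, where the median was 73.3% and 77.7%. The contrast is thus also one between genes. In *Pcdhb9* the window around position 37401341 had a second copy with 100% identity. Across the 22 beta genes, the median identity to the closest window and the AI of the gene had r = 0.21, -0.03 and 0.24 (rho = 0.04, -0.16 and 0.14), a description across genes. In protocadherin SNPs with at least 95% identity the AI was 0.565, 0.574 and 0.6, and in those under 60% it was 0.591, 0.576 and 0.564. Whether similar copies have a part in the maternal stretches was not tested.

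The maternal side was more marked where GC content was low. GC content was taken over the SNP and 150 bp on each side. Under 40% GC, the AI of the locus was 0.635, 0.651 and 0.651 (247 SNPs), and from 40 to 50% it was 0.593, 0.602 and 0.624 (542 SNPs). From 50 to 60% it was 0.545, 0.544 and 0.558 (434 SNPs), and at 60% or more 0.529, 0.549 and 0.558 (194 SNPs). Autosomal SNPs outside the locus went the same way over a smaller range, from 0.569, 0.567 and 0.565 under 40% to 0.525, 0.526 and 0.530 at 60% or more. Beta SNPs in untranslated sequence had 0.624, 0.631 and 0.617 (246 SNPs), beside 0.565, 0.577 and 0.6 in coding sequence (768 SNPs). The part of GC content in the AI was not tested.

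The locus was also covered less in E15.10 than its depth would give. It took 112.8 of every 10000 autosomal counts in E6.2 (112.3 to 113.2), 107.3 in E6.43 (106.7 to 107.8) and 46.3 in E15.10 (45.9 to 46.7), as Wilson intervals for counting error. E15.10 over E6.2 was thus 0.41, and E6.43 over E6.2 was 0.951. The clusters differed in this ratio, with 0.37 for alpha, 0.336 for beta and 0.865 for gamma. Every one of the 22 beta genes had a ratio of E15.10 over E6.2 below 1, from 0.211 for *Pcdhb10* to 0.563 for *Pcdhb1*, and the alpha exons ranged from 0.267 for *Pcdhac1* to 0.519 for *Pcdhac2*. In the gamma cluster the ratio went from 0.553 for *Pcdhga3* to 1.05 for *Pcdhga12*, and the C-type exons *Pcdhgc3*, *Pcdhgc4* and *Pcdhgc5* had 1.18, 1.73 and 1.57. With 1 library per animal these ratios have no replicate check and no test was made.

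E15.10 held fewer counts at low GC in general, with 4.1% of its counts at SNPs under 40% GC, beside 8.55% in E6.2 and 7.89% in E6.43. Values by class of GC content are a description, and the part of GC content in the coverage was not tested. Under 40% GC the ratio of E15.10 over E6.2 was 0.337 at the locus and 0.48 elsewhere on the autosomes, from 40 to 50% it was 0.356 and 0.722, from 50 to 60% it was 0.453 and 1.28, and at 60% or more 0.465 and 1.81. SNPs of genes within 1 Mb on either side of the locus had 0.953, and the rest of chromosome 18 had 0.899. The solitary protocadherins, related single genes elsewhere in the genome, had 0.811. Other tandem families, looked up after these values were seen, had 0.462 (olfactory receptors, *Olfr*), 0.495 (*Vmn1r*) and 0.312 (*Vmn2r*, both vomeronasal receptors). By GC class the olfactory receptors had 0.296 under 40%, below the locus, 0.39 from 40 to 50%, near the locus, and 0.784 from 50 to 60%, above it. A lower share of counts in a library does not tell fewer copies from less capture or alignment, and the AI of the locus shows only the balance of the parental copies. *Pcdhb3* and *Pcdhb8*, called between E15.10 and E6.2, had a ratio of 0.412 and 0.339, and the part of the low coverage in their AI was not tested.

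**Figure D5:**
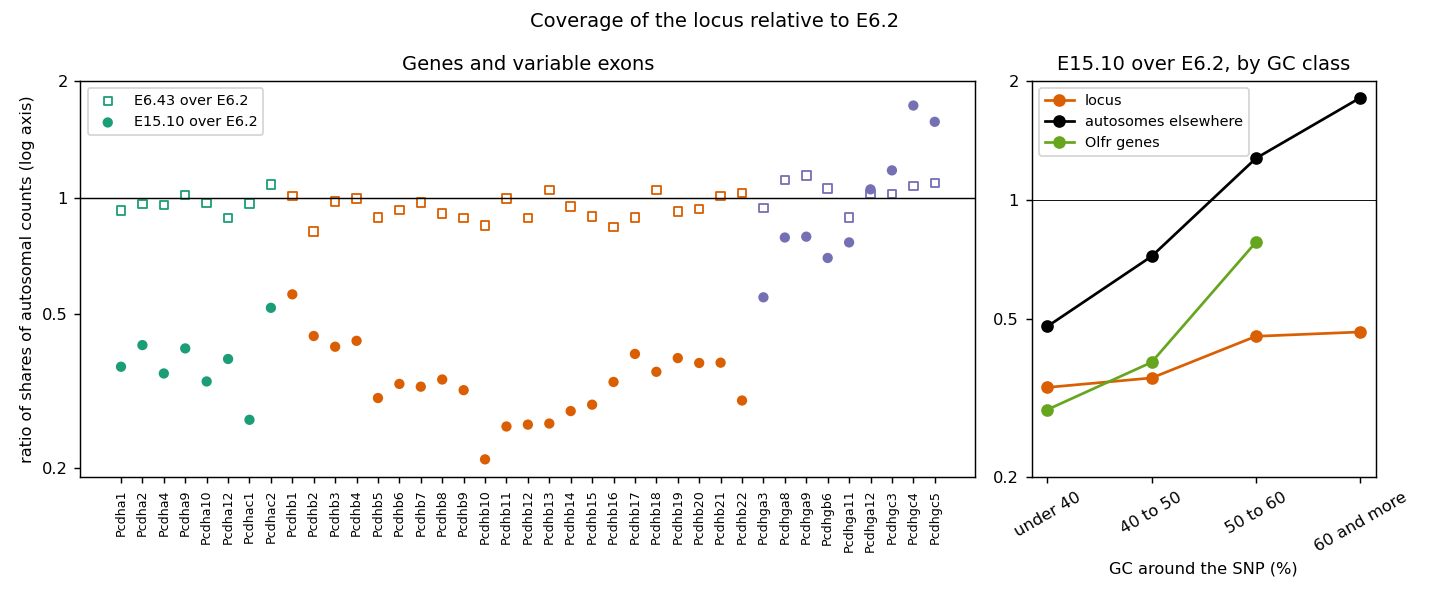
Share of autosomal counts relative to E6.2, on log axes. Left, each gene or variable exon of the clusters in chromosomal order (green alpha, orange beta, purple gamma), with open squares for E6.43 and filled points for E15.10; right, E15.10 over E6.2 by GC class of the SNP for the locus, the other autosomes and olfactory receptor genes (3 classes). The squares lie close to 1 (the lowest is 0.818), the filled points of alpha and beta lie between 0.211 and 0.563, and the line of the locus stays below that of the autosomes in every GC class.

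The solitary protocadherins and the genes that act on protocadherin choice gave a comparison for single genes. All 10 solitary protocadherins were measured, with a median AI of 0.512, 0.531 and 0.512, and 0 of 10 were in the LOH range or passed a test within or between libraries. Unlike the locus with all SNPs counted, 2, 3 and 4 of the 10 were above the library median, and this difference was not tested. *Pcdh12*, which also lies on chromosome 18, had 0.537, 0.530 and 0.523. All 11 genes of the factors were measured, among them *Ctcf*, *Rad21* (a cohesin subunit) and *Smchd1* (a chromatin repressor of the locus), with a median AI of 0.525, 0.537 and 0.519, and 0 of 11 passed a test. Of autosomal genes 2.73%, 2.46% and 2.19% passed within the libraries. The LOH range held 5.32%, 5.56% and 5.24%. Between E6.43 and E6.2 0.661% passed, and in the comparisons of E15.10 4.76% (E6.2) and 4.78% (E6.43). Counts of 0 in lists of 10 and 11 genes therefore say little. The *Ctcf* gene had 0.454, 0.604 and 0.592 from 119, 91 and 76 counts, *Rad21* had 0.511, 0.5 and 0.601, and *Smchd1* had 0.555, 0.537 and 0.608. These 3 are among the higher factors of E15.10, where 4 of the 11 were above the library median. *Dnmt3a* had 0.565, 0.464 and 0.448, *Wapl* had 0.562, 0.546 and 0.467, and *Wiz* had 0.4, 0.653 and 0.514. The 35 measured genes within 1 Mb of the locus had a median AI of 0.547, 0.541 and 0.541.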

How the data were processed

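Genomic DNA of 3 libraries was captured with the Agilent SureSelect Mouse All ExonV6 kit. The authors counted reads of each allele at SNPs with the ASEReadCounter* pipeline and deposited, without normalization, the counts per gene and per SNP (a comma-separated list, another kind of column). The submitters' processing notes name cutadapt 1.14, Trim Galore, STAR 2.5.4a, SAMtools and GATK, without saying which steps applied to exome reads, and duplicate removal is not given in the sources used here. The 97.9% of SNPs inside the GENCODE M21 span of their gene, and positions within the chromosome ends, showed GRCm38 coordinates. Alignment that favours the B6 reference would raise AI, and reads that fit several copies would be lost. A deposited table of the series holds, for genes with at least 90 counts, the same counts beside AI as a fraction, its confidence limits, and a binomial p-value with the call drawn from it. The authors' deposited fraction, p-value and calls hold findings of the study and were left out, and the counts served an alternative. Columns outside the 3 libraries numbered 0.

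Depths were 19471576, 13036005 and 10863972 counts. AI was maternal over total counts, for genes with at least 10 and SNPs with at least 20 counts. Within a library, genes were tested by a two-sided beta-binomial test against the median, with the overdispersion (0.0526, 0.0558 and 0.0334) estimated from autosomal genes with at least 50 counts. Between libraries, Fisher's exact test was two-sided, on SNPs at least 300 bp apart (best covered first), and on single SNPs. All p-values were adjusted by Benjamini-Hochberg over all autosomal genes or SNPs, with a threshold of 0.05, in Python 3.11.15 with SciPy 1.17.1 and NumPy 2.4.6, and the scripts were tested on simulated data. Intervals (Wilson, or Newcombe for differences, 95%) cover counting error only, and floors are 3 counts. GC content and identity were read from the RefSeq GRCm38.p6 genome, identity being the best match of the window of 50 bp on each side of a SNP, on the same strand within the interval.

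Named in full were, per cluster, the gene or exon with most counts and with the lowest and highest AI in each library (at least 50 counts), genes in the LOH range or called, C-type exons and the genes that encode no protocadherin. Values of *Pcdhb4*, *Pcdhb10*, *Pcdhb1*, *Pcdhga3*, *Pcdh12*, *Ctcf*, *Rad21*, *Smchd1*, *Dnmt3a*, *Wapl* and *Wiz*, of single SNPs and of the receptor families were chosen after their values were seen. The members and the lists were chosen with earlier results of these data known.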

Additional observations from a re-analysis of the deposited data

How the results depend on the processing

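No paired analysis was possible because each group is 1 library. The number of genes in the LOH range was 0 under all alternatives, except that the median of SNPs gave 1 in E6.2 and 1 in E6.43, and limits of 0.3 and 0.7 gave 1 in each T cell library. The number from 0.4 to 0.6 stayed within 1.5 times. Within libraries, the exact binomial test gave 19, 15 and 15 genes of the locus on summed counts, beside 34.4%, 31.3% and 29.6% of autosomal genes, and 6, 6 and 4 on SNPs at least 300 bp apart, beside 17.3%, 15.1% and 12.6%. An overdispersion from genes with AI from 0.25 to 0.75, an alternative chosen after seeing the data, gave 1 gene in E6.43, *3222401L13Rik*, beside 5.85%. Between E6.43 and E6.2, summed counts gave 11 genes (13.8% of autosomal genes), the deposited series table gave 11 (15.4%) and a spacing of 150 bp 1 (*Pcdhb2*, 1.11%). Between E15.10 and E6.2, summed counts gave 8 (18.8%) and the series table gave 9 (21.8%). Between E15.10 and E6.43, summed counts gave 9 (18.7%), the series table gave 10 (21.7%), a spacing of 150 bp gave 3 (5.86%) and of 600 bp 2 (4.54%). A spacing from left to right, also chosen after seeing the data, gave 0, 2 and 1 for these pairs, beside 0.714%, 4.5% and 4.39%. The gene called then in the last pair was not *Pcdhb2*. The number of SNPs in the LOH range was 145 of 1185 (E6.43) and 189 of 1017 (E15.10) with limits of 0.3 and 0.7. It was 49 in E15.10 with at least 40 counts, a minimum that fewer of its SNPs reach. Shares of autosomal SNPs at these settings were not computed, so these numbers have no background beside them. On SNPs at least 300 bp apart the AI of the beta cluster was 0.536, 0.549 and 0.575 and that of the gamma cluster 0.545, 0.517 and 0.521 for E6.2, E6.43, E15.10, and that of the alpha cluster was 0.526 in E6.43. The median of SNPs gave 0.561 in E6.2 and 0.593 in E15.10 for beta, 0.551 in E6.43 for alpha and 0.545 in E6.43 for gamma. SNPs with 20 counts in each library gave 0.562 in E6.2 and 0.573 in E6.43 for beta. Of the values of single genes, 28 of 72 left their Wilson interval on spaced SNPs and 18 of 71 as the median of SNPs. The cause of these shifts was not tested. With a median of 29 counts per beta SNP in E15.10, beside 166 in E6.2, small differences at single SNPs were not detectable.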
